A study of Mus musculus with 9 samples.

Results

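The epidermal differentiation complex (EDC) is a stretch of mouse chromosome 3 where genes for the proteins of the cornified envelope lie next to each other. Its members were taken as the chromosome 3 entries of the deposited count tables whose names begin with *Sprr*, *Lce* or *S100a*, or equal *Ivl*, *Lor*, *Flg*, *Flg2*, *Hrnr*, *Rptn*, *Crnn*, *Tchh* or *Tchhl1*. The rule found 57 of 23366 entries, namely 20 *Lce* genes, 15 *Sprr* genes, 14 *S100a* genes, the 2 envelope precursors *Ivl* and *Lor*, and 6 genes of the fused type (*Crnn*, *Flg2*, *Hrnr*, *Rptn*, *Tchh* and *Tchhl1*). Of the 9 names listed singly 8 were found, and *Flg* was not analysed here. The members span chr3:90314956-93368567 of mm9, a stretch of 3.05 Mb.

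The cornified envelope is a shell of cross-linked protein that forms beneath the membrane of keratinocytes as they differentiate terminally. Transglutaminases join involucrin (*Ivl*), loricrin (*Lor*), the small proline-rich proteins (*Sprr*) and the late cornified envelope proteins (*Lce*) into this shell, and fused-type proteins, which carry an S100 domain ahead of long repeats, accompany it in the granular layer, the hair follicle or the tongue. The S100 proteins are small calcium sensors, and several of them are abundant in epithelia that never cornify, so their transcripts alone do not mark cornification.

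RNA-seq read counts of 9 libraries from 2 mouse lines were analysed, both of the C57BL/6 strain at 12 weeks of age and both immortalized spontaneously. mSGc, a line of submandibular gland epithelial cells from male mice, was sampled at passages 2, 4, 10 and 25 (P2, P4, P10 and P25). Every passage was sampled in serum-free medium (SFM), and P10 and P25 also in serum-containing medium (SCM), with 1 library per condition. SFM holds dexamethasone, epidermal growth factor and fibroblast growth factor. SCM holds fetal bovine serum, retinoic acid, triiodothyronine and hydrocortisone, and also epidermal growth factor, at a higher concentration than SFM. The labels call these media progenitor and differentiating, and the names were taken as SFM and SCM. Immortalized mouse oral keratinocytes (IMOK), from the stratified epithelium of the mouth, were sampled in a medium of their own as 3 replicate libraries. The labels call their passage early and the P10 mSGc libraries mid, whereas the study describes IMOK as taken at the passage number of the P10 cells. Each line is a single line, and the labels do not say whether the IMOK libraries came from separate cultures. P-values then measure the spread between libraries, which may be technical. Between the lines, the spread of the mSGc libraries also holds differences of passage and medium. Cell line, medium and experiment cannot be told apart between mSGc and IMOK, and in bulk RNA fewer cells that express a gene cannot be told apart from less RNA per cell.

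The libraries held 6237884 to 18444963 counted reads, so that 3 counts, the limit that a count of 0 allows, correspond to 0.163 to 0.481 CPM (counts scaled to a common library total). All 9 basal keratinocyte markers examined, among them *Krt5* and *Krt14*, reached 1 TPM (counts per gene length, scaled to the same total in each library) in every library. IMOK replicate 1 stood apart from replicates 2 and 3, with a chi-square per degree of freedom over genes of 150 and 180 against 21.3 between those 2 replicates. Some acinar transcripts of the salivary gland were not confined to mSGc. *Prol1* had 60.0 TPM in the P4 library and 47.4 and 30.5 TPM in IMOK replicates 2 and 3, and 0.101 TPM or less in the other 6 libraries. The 8 acinar markers together summed to 14.1 to 144 TPM in mSGc and 166 to 227 TPM in IMOK. Of these, *Aqp5* alone gave 213, 111 and 72.9 TPM in IMOK replicates 1, 2 and 3. *Smgc* and *Muc19* went the other way. *Smgc* was at 1.40 and 1.76 TPM and *Muc19* at 0.519 and 0.416 TPM at P2 and P4, and both were at 0.0390 TPM or less in IMOK.

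Most of the complex was at low levels, although few members had no count at all. Of the 57 members 7 had no count in any library (*S100a9*, *Sprr2a1*, *Sprr2a2*, *Lce6a*, *Lce1l*, *Flg2* and *Tchhl1*). This was a smaller share than the 21.7% of all entries. In total 34 members never exceeded 9 counts, and the share of all entries at that level was not computed. Only 16 members reached 10 TPM in some library, against 44.3% of all entries, and these were 9 *S100a* genes, 4 *Sprr* genes, *Lce1g*, *Lce1h* and *Ivl*. A further 13 members peaked between 1 and 10 TPM and 28 stayed below 1 TPM, whereas 58.7% of all entries reached 1 TPM. The expressed members sat mainly in blocks (the plot of mean level along the complex). The 14 *S100a* genes lie in 2 groups at the edges, 12 in chr3:90314956-90499613 and *S100a11* and *S100a10* in chr3:93324418-93368567, and they held 92.9% to 99.0% of the members' summed TPM in each library. *Sprr* genes occupy chr3:92019757-92304415 and summed to 65.6 to 803 TPM in mSGc and 68.6 to 193 TPM in IMOK. *Lce* genes occupy chr3:92424007-92822982 and summed to 0 to 112 TPM in mSGc and 0.464 to 2.26 TPM in IMOK.

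**Figure D1:**
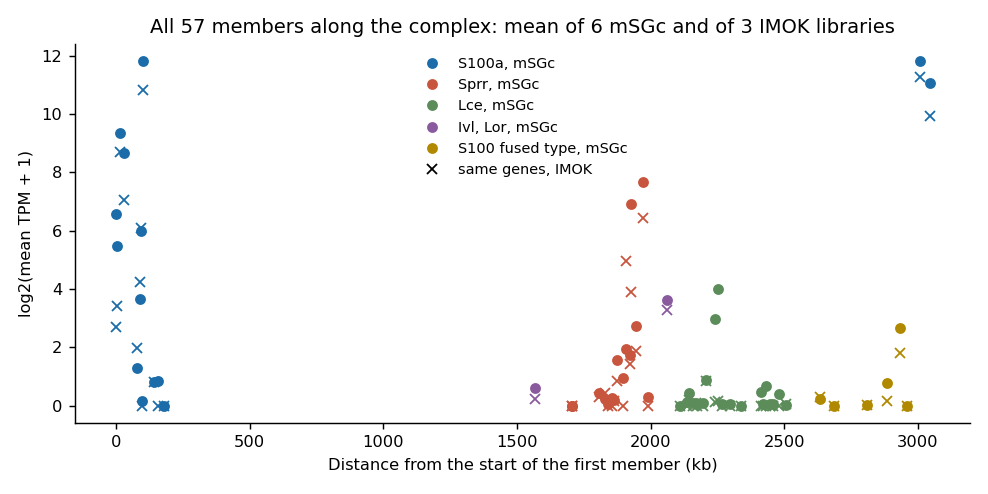
Mean level of all 57 members, as log2(mean TPM + 1), against the distance of each gene from the start of the first member (kb). Filled circles are means of 6 mSGc libraries and crosses means of 3 IMOK libraries, coloured by subfamily. The S100a genes at the 2 edges stand highest, the Sprr genes to the right of the middle follow, and most Lce and fused-type genes lie near 0.

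**Figure D2:**
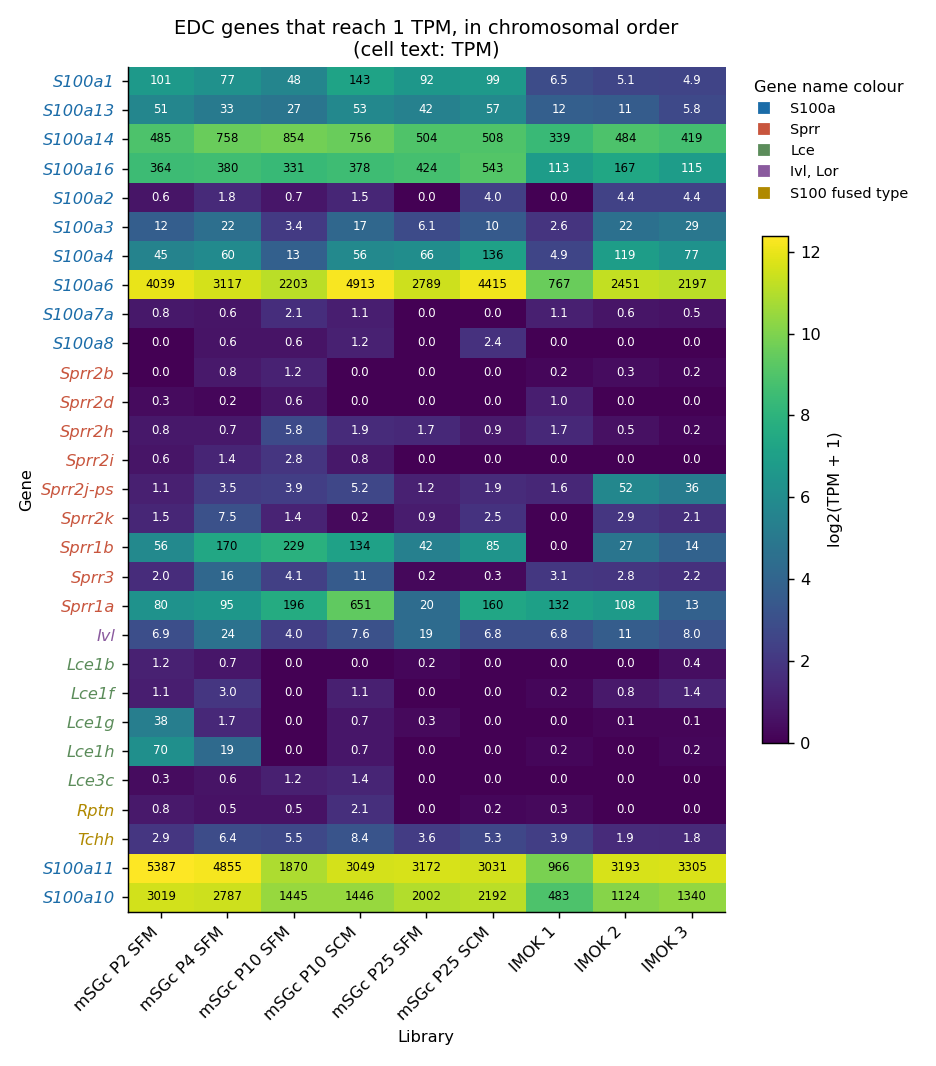
TPM of the 29 members that reached 1 TPM, in chromosomal order (rows), in each of the 9 libraries (columns), with colour on the log2(TPM + 1) scale and the TPM printed in each cell. *S100a6*, *S100a11* and *S100a10* have the brightest rows, and *Lce1g* and *Lce1h* stood out at P2.

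Promoter sequences are shown because most *Sprr* genes and *Ivl* share a short motif that the *Lce* genes lack. RefSeq promoters (table of build GRCm38.p6) ran from 250 bases before to 50 bases after an annotated start. They were matched to 51 members as 55 windows. Of these, 53 occurred exactly once in the mm9 stretch of the complex and its flanks, and no other part of the genome was searched. The pattern TGANTCA, which reads the same on both strands, takes any middle base. It covers the AP-1 sites TGACTCA and TGAGTCA, bound by Jun and Fos dimers, and is wider than them. The pattern was present in 17 of the 55 windows (30.9%), against 7.81% of all 32851 promoters. It was found in 9 of 13 *Sprr* windows, in those of *Ivl* and *Lor*, in 4 of 6 of the fused type, in 2 of 15 *S100a* windows (*S100a11* and *S100a16*) and in 0 of 19 *Lce* windows. In *Sprr1b*, *S100a16*, *Crnn*, *Flg2*, *Rptn* and *Tchhl1* the only match was TGAATCA or TGATTCA, which is neither of those AP-1 sites. Of the *Sprr* genes with a match 7 were *Sprr2* genes, where it began 182 to 198 bases before the start. *Sprr2* genes are close copies, so their matches are not separate observations. The KLF motif CACCC was in 56.4% of member windows and 57.5% of all promoters, and the ETS motif GGAAG in 70.9% and 71.4%, with both strands searched. A match is a description of the letters in this window and not a binding site.

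The 8 windows that follow, printed 5′ to 3′ on the strand of the gene with TGANTCA matches in capitals, belong to the expressed envelope genes (*Sprr1a*, *Sprr1b*, *Sprr3*, *Ivl*, *Lce1h* and *Lce1g*), to the abundant *S100a11*, and to *S100a13*, whose window overlaps that of *S100a1*. In mm9 they lie on the minus strand at chr3:92289754-92290053 (*Sprr1a*), chr3:92242652-92242951 (*Sprr1b*), chr3:92262593-92262892 (*Sprr3*), chr3:92377608-92377907 (*Ivl*), chr3:92568938-92569237 (*Lce1h*) and chr3:92556211-92556510 (*Lce1g*), and on the plus strand at chr3:93324168-93324467 (*S100a11*) and chr3:90318107-90318406 (*S100a13*).
Sprr1a: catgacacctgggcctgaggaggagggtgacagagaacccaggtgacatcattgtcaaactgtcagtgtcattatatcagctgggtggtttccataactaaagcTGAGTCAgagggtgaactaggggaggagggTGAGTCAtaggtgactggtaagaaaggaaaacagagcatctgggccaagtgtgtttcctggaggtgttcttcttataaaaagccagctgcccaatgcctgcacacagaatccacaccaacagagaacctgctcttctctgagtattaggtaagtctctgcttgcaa
Sprr1b: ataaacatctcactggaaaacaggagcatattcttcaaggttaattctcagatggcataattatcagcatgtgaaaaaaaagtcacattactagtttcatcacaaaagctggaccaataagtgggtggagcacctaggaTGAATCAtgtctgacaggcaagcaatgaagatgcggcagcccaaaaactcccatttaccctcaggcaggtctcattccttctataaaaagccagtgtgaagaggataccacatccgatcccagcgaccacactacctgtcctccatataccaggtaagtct
Sprr3: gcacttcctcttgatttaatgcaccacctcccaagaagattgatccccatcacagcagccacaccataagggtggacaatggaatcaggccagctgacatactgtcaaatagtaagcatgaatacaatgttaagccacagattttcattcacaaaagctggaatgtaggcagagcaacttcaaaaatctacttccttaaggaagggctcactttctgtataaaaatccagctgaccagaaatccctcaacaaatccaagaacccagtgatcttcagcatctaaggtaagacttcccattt
Ivl: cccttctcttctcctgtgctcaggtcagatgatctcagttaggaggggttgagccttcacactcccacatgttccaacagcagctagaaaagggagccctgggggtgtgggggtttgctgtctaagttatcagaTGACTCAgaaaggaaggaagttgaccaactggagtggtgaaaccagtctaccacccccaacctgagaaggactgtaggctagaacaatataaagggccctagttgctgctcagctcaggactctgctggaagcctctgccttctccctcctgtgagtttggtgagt
S100a11: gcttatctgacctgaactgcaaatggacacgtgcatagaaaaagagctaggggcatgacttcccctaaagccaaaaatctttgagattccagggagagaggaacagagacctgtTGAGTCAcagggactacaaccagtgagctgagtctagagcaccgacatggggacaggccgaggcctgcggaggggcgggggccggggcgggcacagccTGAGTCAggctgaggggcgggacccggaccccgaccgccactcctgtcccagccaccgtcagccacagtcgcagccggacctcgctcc
Lce1h: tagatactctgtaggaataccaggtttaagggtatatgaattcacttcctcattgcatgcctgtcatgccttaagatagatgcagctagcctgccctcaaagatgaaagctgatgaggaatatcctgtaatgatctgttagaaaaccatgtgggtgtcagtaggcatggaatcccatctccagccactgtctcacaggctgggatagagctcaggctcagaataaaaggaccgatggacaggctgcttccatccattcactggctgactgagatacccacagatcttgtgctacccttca
Lce1g: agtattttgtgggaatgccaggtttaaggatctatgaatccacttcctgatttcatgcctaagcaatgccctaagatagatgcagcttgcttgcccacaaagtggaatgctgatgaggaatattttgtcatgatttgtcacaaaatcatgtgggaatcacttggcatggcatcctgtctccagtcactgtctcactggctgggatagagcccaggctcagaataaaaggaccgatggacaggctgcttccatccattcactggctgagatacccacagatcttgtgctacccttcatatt
S100a13: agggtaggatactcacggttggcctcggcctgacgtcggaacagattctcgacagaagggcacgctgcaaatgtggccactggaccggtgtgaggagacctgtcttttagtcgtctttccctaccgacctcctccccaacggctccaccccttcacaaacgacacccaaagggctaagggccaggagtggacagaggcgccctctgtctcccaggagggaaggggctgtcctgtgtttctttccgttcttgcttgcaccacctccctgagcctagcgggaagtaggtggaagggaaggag
*Sprr1a* held 2 matches, which began 146 and 116 bases before its start, *Sprr1b* 1 match at 111 bases, *Ivl* 1 at 116 bases and *S100a11* 2 at 136 and 38 bases, and the window of *Sprr3* held none. The windows of *Lce1g* and *Lce1h* were identical at 84.6% of aligned positions, whereas *Sprr1a* and *Sprr1b* were identical at 56.3%. The latter is little above pairs from different subfamilies aligned the same way. These were *Lce1h* with *Sprr1a* (53.9%) and *Sprr1a* with *Ivl* (50.8%). *S100a13* and *S100a1* lie head to head on opposite strands, their starts are 105 bases apart, and 204 bases of the printed window also belong to the promoter window of *S100a1*.

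The first comparison was between the 2 epithelial lines, 6 mSGc against 3 IMOK libraries, and 18 of the 57 members had enough counts to be tested (edgeR's quasi-likelihood test, Benjamini-Hochberg adjustment over all 12885 genes tested). *S100a1*, *S100a13*, *S100a16*, *S100a14* and *Tchh* were higher in mSGc and *Sprr2j-ps* was lower. That makes 5 members higher and 1 lower, against 6.58% higher and 8.30% lower among all genes tested. In 6 of the tested members (*S100a1*, *S100a13*, *S100a14*, *S100a16*, *S100a10* and *Sprr1b*) every mSGc library lay above every IMOK library, against 5.22% of all genes tested, and in 0 members every mSGc library lay below, against 17.0%. The median log2 fold change of the tested members was 1.30, against 0.0023 over all genes. DESeq2 called 8 members higher and 1 lower (11.6% and 10.9% of all genes), adding *S100a6*, *S100a10* and *Sprr1b*, and limma voom called the same 8 higher and 0 lower (6.95% and 9.68%). The count of higher members was 3 in place of 5 when the P4 library, either P25 library or IMOK replicate 2 or 3 was left out, and *S100a1*, *S100a13* and *S100a16* were the 3 in each case. The remaining 39 members could not be tested, among them all 20 *Lce* genes.

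**Figure D3:**
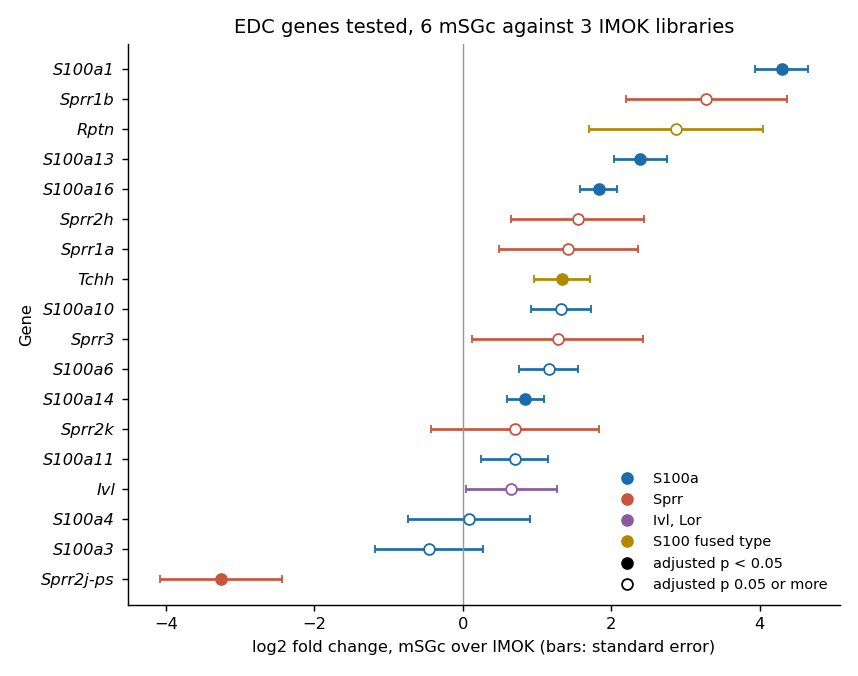
Log2 fold change of mSGc over IMOK for the 18 members tested, with standard errors as bars. Filled points passed an adjusted p of 0.05 (edgeR) and colours give the subfamily. *S100a1* lies farthest to the right at 4.30 and *Sprr2j-ps* farthest to the left at -3.26.

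Among the calcium sensors, *S100a1*, known best from heart and skeletal muscle, differed most. Its level was 101 TPM at P2, 77.1 at P4, 48.4 and 143 at P10 in SFM and SCM, and 92.0 and 98.9 at P25 in SFM and SCM, against 6.49, 5.09 and 4.87 TPM in IMOK. The ranges lay far apart, and the log2 fold change was 4.30 ± 0.36 (SE; edgeR adjusted p = 8.94e-05). Its head-to-head neighbour *S100a13*, which is involved in the release of growth factors without a signal peptide, had 51.3, 32.6, 26.8, 53.5, 42.1 and 56.6 TPM in the mSGc libraries, in the same order, against 12.5, 11.03 and 5.76 TPM in IMOK. Its log2 fold change was 2.39 ± 0.36 (edgeR adjusted p = 0.00246).

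*S100a16* and *S100a14*, a pair of widely expressed epithelial S100 genes, lie next in order. *S100a16* was at 364, 380, 331, 378, 424 and 543 TPM in mSGc, in that order, and at 113, 167 and 115 TPM in IMOK. The log2 fold change was 1.84 ± 0.25 (edgeR adjusted p = 0.00169). *S100a14* was at 485, 758, 854, 756, 504 and 508 TPM in mSGc and at 339, 484 and 419 TPM in IMOK, so that the P2 library and IMOK replicate 2 nearly met. Its log2 fold change was 0.85 ± 0.25 (edgeR adjusted p = 0.0488), or 0.67 (0.126) without IMOK replicate 1. It passed the threshold under 3 of 16 alternative settings, whereas *S100a1* and *S100a16* passed under all 16 and *S100a13* under 15. The 4 called *S100a* genes are the first 4 members of the complex and span 32.1 kb.

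The 3 most abundant members showed a gap within IMOK that was as large as the gap between the lines (the plot of *S100a* genes by library). *S100a6* had 4039, 3117, 2203, 4913, 2789 and 4415 TPM in mSGc, against 767, 2451 and 2197 TPM in IMOK. *S100a11*, a transglutaminase substrate of the envelope, had 5387, 4855, 1870, 3049, 3172 and 3031 TPM in mSGc, against 966, 3193 and 3305 TPM in IMOK. *S100a10*, the partner of annexin A2, had 3019, 2787, 1445, 1446, 2002 and 2192 TPM in mSGc, against 483, 1124 and 1340 TPM in IMOK. The mean of IMOK replicates 2 and 3 was 3.03, 3.36 and 2.55 times the level of replicate 1. None of the 3 passed the test, with log2 fold changes of 1.16 ± 0.40 (edgeR adjusted p = 0.0751), 0.70 ± 0.45 (0.331) and 1.32 ± 0.40 (0.0525). Without IMOK replicate 1 the log2 fold changes of *S100a6*, *S100a11* and *S100a10* were 0.77, 0.29 and 0.97 (edgeR adjusted p = 0.104, 0.630 and 0.0967).

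*S100a4* and *S100a3* followed the same split of the IMOK libraries more steeply. *S100a4*, a gene often associated with motile cells, had 45.1, 60.0, 13.1, 55.7, 66.5 and 136 TPM in mSGc, against 4.94, 119 and 77.5 TPM in IMOK. *S100a3*, a hair cuticle protein, had 11.9, 22.1, 3.36, 16.6, 6.11 and 10.3 TPM in mSGc, against 2.64, 22.5 and 28.9 TPM in IMOK. Replicate 1 lay 19.9-fold and 9.74-fold under the mean of replicates 2 and 3, the groups overlapped, and neither gene passed the test (log2 fold changes of 0.08 ± 0.83 and -0.45 ± 0.72, edgeR adjusted p = 0.962 and 0.721). Without replicate 1 their log2 fold changes were -0.47 and -0.98. *S100a8* and *S100a9*, the calprotectin subunits of neutrophils and of stressed keratinocytes, had at most 3 counts and 0 counts in any library. *S100a2*, *S100a5* and *S100a7a* peaked at 4.42, 0.737 and 2.05 TPM.

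**Figure D4:**
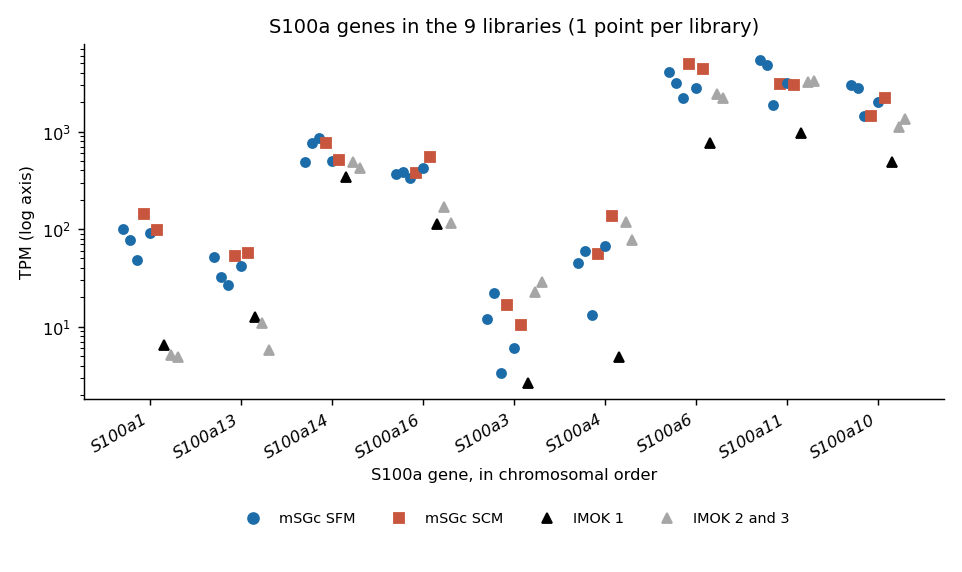
TPM on a log axis of the 9 *S100a* genes that reached 10 TPM, 1 point per library, in chromosomal order. All mSGc points of *S100a1*, *S100a13* and *S100a16* lie above all IMOK points, and IMOK replicate 1 (black triangles) lies below the other IMOK libraries in *S100a3*, *S100a4*, *S100a6*, *S100a11* and *S100a10*.

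Among the small proline-rich genes, whose products bridge other proteins of the envelope, *Sprr1a* and *Sprr1b* carried most transcripts. *Sprr1b* was at 56.2 TPM at P2, 170 at P4, 229 and 134 at P10 in SFM and SCM, and 41.6 and 84.7 at P25 in SFM and SCM, against 0, 27.0 and 14.1 TPM in IMOK. All mSGc libraries lay above all IMOK libraries, with a log2 fold change of 3.28 ± 1.09 that missed the threshold (edgeR adjusted p = 0.0690). Replicate 1 of IMOK had 0 counts of *Sprr1b*, and without it the log2 fold change was 2.69 and the adjusted p was 0.0342 (edgeR). *Sprr1a* was at 79.9, 94.6, 196, 651, 19.95 and 160 TPM in mSGc, in the same order, and at 132, 108 and 13.4 TPM in IMOK. Here replicate 3 was the low library, the groups overlapped, and the log2 fold change was 1.42 ± 0.94 (edgeR adjusted p = 0.340). *Sprr3*, a gene of internal stratified epithelia such as the oesophagus, was at 2.01, 16.4, 4.09, 10.6, 0.193 and 0.261 TPM in mSGc and at 3.07, 2.75 and 2.25 TPM in IMOK. Its log2 fold change was 1.28 ± 1.15 (edgeR adjusted p = 0.498).

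The 11 *Sprr2* entries were low, with one exception. *Sprr2j-ps*, annotated as a pseudogene, was at 1.12, 3.48, 3.88, 5.17, 1.22 and 1.89 TPM in mSGc and at 1.57, 51.9 and 36.3 TPM in IMOK. IMOK replicate 1 fell within the range of mSGc, and the log2 fold change of -3.26 ± 0.82 (edgeR adjusted p = 0.0262) rests on replicates 2 and 3. The adjusted p was 0.132 without replicate 2, 0.0806 without replicate 3 and 0.0504 without the P4 library, and 0.00290 without replicate 1 (edgeR). Replicates 2 and 3 were also the IMOK libraries with *Prol1*, at 47.4 and 30.5 TPM against 0 in replicate 1, while the P4 library held *Prol1* at 60.0 TPM and *Sprr2j-ps* at 3.48 TPM. The part of acinar transcripts in this difference was not tested. The other 10 *Sprr2* entries peaked at 7.49 TPM (*Sprr2k*) or below, and *Sprr2h* and *Sprr2k* did not pass the test. *Sprr2a1* and *Sprr2a2* have the same coordinates and 0 counts in the tables. Of the 50-base windows of their exons, 98.8% occur at more than 1 position of the complex, repeats within the same entry included. Reads from this locus may therefore not have been assigned to either, and their 0 counts are uncertain. For *Sprr2j-ps* this share was 0.174%, for *Sprr1b* 10.4% and for *Sprr1a* 0%.

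*Ivl*, the scaffold on which the envelope is built, was present in both lines, and no difference between them was detected. It was at 6.87 TPM at P2, 24.3 at P4, 3.96 and 7.56 at P10 in SFM and SCM, and 19.0 and 6.79 at P25 in SFM and SCM, against 6.83, 11.5 and 7.97 TPM in IMOK. The IMOK libraries lay inside the range of mSGc, and the log2 fold change was 0.66 ± 0.62 (edgeR adjusted p = 0.519). *Lor*, the major envelope protein of the epidermis, stayed at 0.888 TPM or below, with 2 to 10 counts in each library. Of the fused-type genes, *Tchh* (trichohyalin of the hair follicle and the tongue) was at 2.89, 6.43, 5.53, 8.44, 3.56 and 5.30 TPM in mSGc and at 3.87, 1.87 and 1.76 TPM in IMOK. IMOK replicate 1 lay inside the range of mSGc, the log2 fold change was 1.34 ± 0.38 (edgeR adjusted p = 0.0421), and 10 of 16 alternative settings ended the call. Without replicate 1 of IMOK it was 1.71 (edgeR adjusted p = 0.0266). *Rptn* (repetin) reached 2.13 TPM at P10 in SCM with 0.255 TPM or less in the IMOK libraries (log2 fold change of 2.87 ± 1.17, edgeR adjusted p = 0.127). *Crnn* peaked at 0.641 TPM and *Hrnr* at 0.0408 TPM.

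The medium comparison asked how the complex differed between SCM and SFM within mSGc, in a joint fit with log2 passage number that tested 17 members. By edgeR 0 of 17 passed, against 0.0241% higher and 0.00% lower among all 12451 genes tested. At an unadjusted p under 0.05 there were 2 members (*Sprr1a* and *Rptn*), against 8.18% of all genes, and 0 members were called by DESeq2 (1.55% higher and 0.626% lower among all genes) and by limma voom (0.00% both). The fit has 3 residual degrees of freedom, and the median log2 fold change was 0.45 over the members and -0.0143 over all genes. On the log2(TPM + 1) scale, 12 of the 17 members were higher in SCM at both passages and 0 were lower at both, against 43.6% and 18.4% of all genes. The 12 include *S100a10*, with a difference of 0.00049 at P10. They also include *Rptn* and *Sprr3*, with 1 or 2 counts in each P25 library, so these signs carry little weight. Opposite signs at P10 and P25 were seen in 4 members (*S100a14*, *Sprr1b*, *Ivl* and *S100a11*), against 37.4% of all genes.

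*Sprr1a* had the lowest p of the members. It was at 651 TPM in SCM and 196 TPM in SFM at P10, a ratio of 3.32, and at 160 and 19.95 TPM at P25, a ratio of 8.04. The log2 fold change in the joint fit was 2.28 ± 0.82 (edgeR adjusted p = 0.509). With the P10 and P25 libraries only and passage as a block it was 2.19 with an adjusted p of 0.0385, and without the P10 SFM library 3.45 with 0.0438 (edgeR). *Rptn* was at 2.13 TPM in SCM and 0.524 in SFM at P10, and had 2 counts and 1 count at P25, with a log2 fold change of 2.47 ± 0.95 (edgeR adjusted p = 0.557). *S100a6* was 2.23 and 1.58 times higher in SCM at P10 and P25, with a log2 fold change of 0.63 ± 0.30 (edgeR adjusted p = 0.683). Differences of at least 1 on the log2(TPM + 1) scale in favour of SCM were seen in 7 members at P10 (*S100a1*, *S100a3*, *S100a4*, *S100a6*, *Sprr3*, *Sprr1a* and *Rptn*), against 7.57% of all genes, where 0 were lower by as much (3.13%), and in 3 members at P25 (*S100a4*, *Sprr1b* and *Sprr1a*), against 3.50%. *Ivl* was the 1 tested member lower by that much at P25 (2.39% of all genes), where it was 2.79-fold lower in SCM, although it was 1.91-fold higher in SCM at P10.

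Along passage, 1 late cornified envelope gene was called lower. Of 17 members tested by edgeR 1 was called lower per doubling of passage number and 0 higher, against 0.442% and 0.0482% of all genes tested. The called gene was *Lce1h*, with 263 counts at P2 and 118 at P4, and 3 or fewer in each of the other 7 libraries. Its level fell from 70.4 TPM at P2 to 18.6 at P4 and to 0 at P10 and P25 in SFM, with 0.672 TPM at P10 in SCM. The P2 level was 3.50 times that of P4 in CPM, and at least 71.6-fold, 124-fold and 50.3-fold higher than at P10 in SFM, P25 in SFM and P25 in SCM, where 3 counts per library were used as the floor. The fitted log2 change was -3.26 ± 0.48 per doubling (edgeR adjusted p = 0.0488), a size that depends on the prior count since 4 of 6 libraries hold 3 counts or fewer, and *Lce1h* passed the expression filter only through its early libraries. DESeq2 called 2 members lower and 0 higher (4.65% and 0.972% of all genes), *Lce1h* and *Sprr3* (for *Sprr3* a log2 change of -1.73 per doubling, DESeq2 adjusted p = 0.0210).

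*Lce1g*, the neighbour of *Lce1h*, had a similar course but failed the filter. It had 187 counts at P2 and 14 at P4, 4 at P10 in SCM and 2 or fewer in each of the other libraries, or 38.3, 1.69, 0, 0.686, 0.255 and 0 TPM in mSGc. The P2 level was at least 50.9-fold higher than at P10 in SFM and 35.7-fold higher than at P25 in SCM. Between 19.5% and 21.5% of the 50-base exon windows of *Lce1g* and *Lce1h* occur at more than 1 position of the complex, repeats within the same gene included. Part of their reads could thus have been placed in a neighbour. The other 18 *Lce* genes peaked at 2.95 TPM (*Lce1f* at P4) or below, and 0 of the 20 genes had a count at P25 in SCM, which allows up to 0.481 CPM each. The number of *Lce* genes with a count was 9 at P2, 14 at P4, 4 and 8 at P10, and 2 and 0 at P25, against 2 to 5 in IMOK.

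The P2 library also had the highest sum of fibroblast markers, although not every marker was highest there. The 8 fibroblast markers summed to 23.1 TPM at P2 and to 0.320 to 4.48 TPM in the other mSGc libraries, with *Col1a2* at 9.88 TPM and *Thy1* at 3.92 TPM at P2, and *Thy1* at 0 in all other mSGc libraries. Whether fibroblasts were present, and their part in the fall of *Lce1g* and *Lce1h*, was not tested. Without the P2 or the P4 library *Lce1h* did not pass the filter and gave no value, and the adjusted p was 0.302 without the P25 SFM library (edgeR). The remaining members showed no call along passage, among them *Sprr1a* (log2 change of -0.38 ± 0.40 per doubling, edgeR adjusted p = 0.740), *Sprr1b* (-0.09 ± 0.35, 0.944) and *Ivl* (0.15 ± 0.30, 0.890). *Sprr1b* and *Sprr1a* were highest at P10 and lowest at P25 among the SFM libraries, so their levels did not move in 1 direction with passage.

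**Figure D5:**
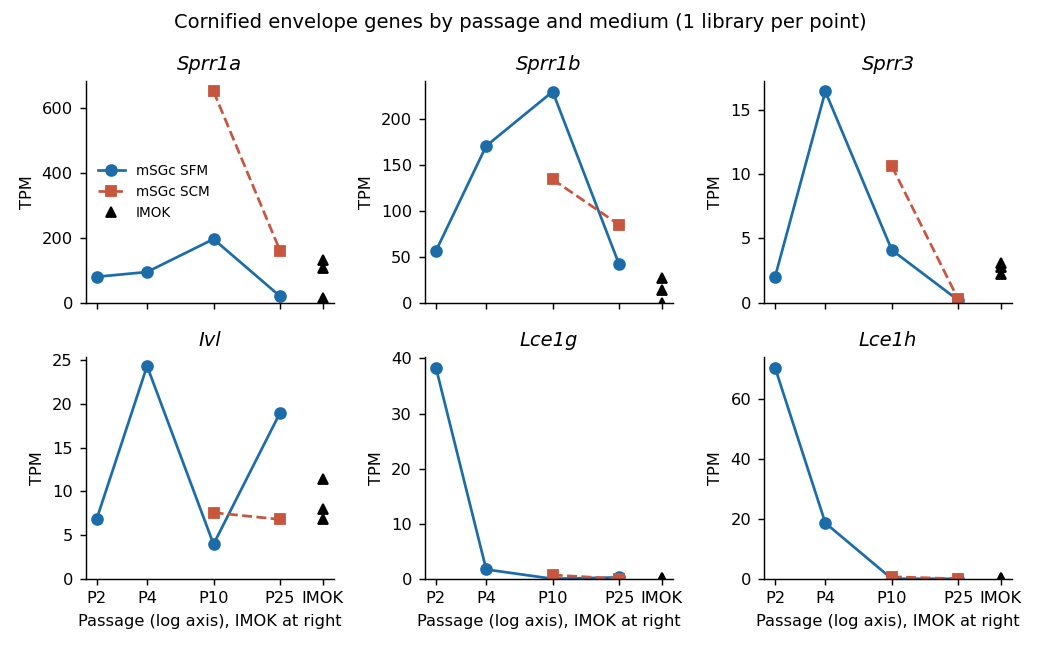
TPM of *Sprr1a*, *Sprr1b*, *Sprr3*, *Ivl*, *Lce1g* and *Lce1h* against passage (log axis) in SFM (blue circles) and SCM (red squares), with the 3 IMOK libraries at the right. Each point is 1 library. *Lce1g* and *Lce1h* fall from 38.3 and 70.4 TPM at P2, and *Sprr1a* in SCM lies above SFM at P10 and P25.

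Genes outside the complex that act on the envelope were examined from a list of 38 partners (transglutaminases, desmosomal plakins, keratins, lipid and protease genes), of which 37 were in the tables and 27 were tested between the lines. In mSGc 6 were higher and 1 was lower, against the 6.58% and 8.30% given above, with a median log2 fold change of 1.07. *Calml3* and *Calm4*, calmodulin-like genes of keratinocytes, were at 1.56 to 15.96 and 0.475 to 8.98 TPM in mSGc and at 0.247 and 0.128 TPM or less in IMOK, and both were called higher (edgeR adjusted p = 0.00758 and 0.0235). The envelope plakin *Ppl* lay at 31.5 to 95.8 TPM against 21.8 to 35.5 TPM, so the groups overlapped (log2 fold change of 1.25 ± 0.31, edgeR adjusted p = 0.0247). *Krtdap* was higher by 3.37 ± 0.85 (edgeR adjusted p = 0.0258). *Cnfn* was called as well (edgeR adjusted p = 0.0464), with 6.79, 29.0, 5.11, 1.75, 0.488 and 0 TPM in mSGc and 0.162, 0 and 0 TPM in IMOK, so the groups overlapped and the P4 library stood highest. *Krt4*, the keratin of inner stratified epithelia, was called higher (edgeR adjusted p = 0.0429), at 88.2 and 94.8 TPM in the 2 SCM libraries, 0.204 to 8.51 TPM in the 4 SFM libraries and 0 to 0.165 TPM in IMOK. For *Calml3*, *Calm4*, *Krt4* and *Cnfn* the IMOK libraries held 3 counts or fewer each, so the size of the fitted fold depends on the prior count and is left out. *Abca12*, the lipid transporter of lamellar granules, was lower, at 0.798 to 5.33 TPM in mSGc against 14.1 to 20.3 TPM in IMOK (log2 fold change of -2.38 ± 0.56, edgeR adjusted p = 0.0196). By medium 0 partners passed by edgeR, with 13 of the 27 tested at an unadjusted p under 0.05, against 8.18% of all genes. By passage *Cldn4* was called lower (log2 change of -1.17 ± 0.13 per doubling, edgeR adjusted p = 0.0332), 1 of 27 against 0.442% of all genes.

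Of 35 transcription factors known to act in keratinocyte differentiation 33 were tested between the lines. *Tfap2a* and *Tfap2c* were higher in mSGc, with log2 fold changes of 0.97 ± 0.18 and 2.44 ± 0.54 (edgeR adjusted p = 0.00725 and 0.0158). Over these 33 genes the median log2 fold change was 0.27. *Satb1*, a chromatin organizer described at this very complex, and *Pou3f1* were lower. *Satb1* was at 0.390 TPM or less in mSGc and at 9.70, 6.59 and 4.39 TPM in IMOK (log2 fold change of -5.79 ± 0.86, edgeR adjusted p = 0.00246). The AP-1 subunit *Junb*, the most abundant of the list, lay at 192 to 374 TPM in mSGc libraries against 142 to 275 TPM for IMOK, and was not called (log2 fold change of 0.81, edgeR adjusted p = 0.0641). By edgeR 0 of these genes passed for medium and 0 for passage, with 7 and 12 of the 30 tested at an unadjusted p under 0.05, against 8.18% and 13.2% of all genes.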

How the data were processed

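RNA was sequenced as 6 mSGc and 3 IMOK libraries with the TruSeq kit. Per the labels, reads were aligned to mm9 with TopHat2 2.1.1 and Bowtie2 2.2.6 and counted with featureCounts 1.5.1 (the notes also name DESeq2 1.12.4). The authors deposited raw read counts per gene, without normalization, with gene lengths and exons. The annotation and the treatment of reads that map to several places are not given in the sources used here, so members with close copies are uncertain.

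TPM was computed from counts and gene lengths. Counts were tested in R 4.3.3 with edgeR 4.0.16 (quasi-likelihood test, TMM, filterByExpr, Benjamini-Hochberg adjustment over all genes tested, threshold 0.05). Standard errors were obtained as the size of the log2 change over the root of the F statistic. One fit compared mSGc with IMOK (12885 genes), and a joint fit within mSGc held medium and log2 passage number (12451 genes). The fits were tested on simulated data. Total counts were 6237884 to 18444963 per library, and limits from counts cover counting error only. Members and lists were chosen with earlier results of these data known. Values in every library are given for members that reach 10 TPM in a library or pass a test. List or marker genes are named if called or among the 3 most abundant. *Prol1*, *Aqp5*, *Smgc*, *Muc19*, the fibroblast markers and the neighbours of the complex were named after their values were seen. Some genes that this rule names are left out of the text. Promoters came from RefSeq through a GRCm38.p6 table and were placed in mm9 by exact match within the complex and its flanks. Protein sequences were not used here, so the planned comparison of protein composition was not run.

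Alternatives were DESeq2 1.42.0, limma 3.58.1 (voom), no TMM factors, every gene kept, a stricter filter (10 counts or more in each library), a minimum log2 change of 1, each library left out, P10 only, SFM only, P10 and P25 with passage as a block, and untransformed passage.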

Additional observations from a re-analysis of the deposited data

Results flagged for a closer look

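*Lce1g* at P2 (38.3 TPM) stood apart from the other 5 mSGc libraries, with a gap to the nearest of 0.730 of the whole range on the log2(TPM + 1) scale, above Dixon's critical value for 6 samples. It was the 1 flag among the 16 members tested in this way, which were those that reached 10 TPM in some library. *Lce1g* reached 10 TPM only at P2, and *Lce1h* only at P2 and P4. The flag of *Lce1g* thus rests on the value that selected the gene, and the usual rate of 1 in 20 by chance does not apply to it. On TPM without the logarithm, a scale added after seeing the data, 3 members exceeded that value, *Lce1g* at P2 (0.956), *Lce1h* at P2 (0.736) and *Sprr1a* at P10 in SCM (0.721).

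For 5 members the difference between SCM and SFM, on the log2(TPM + 1) scale, had opposite signs at P10 and P25. With 1 library per condition, this difference between passages was not tested. *Ivl* had 0.79 at P10 and -1.36 at P25, *Sprr1b* -0.77 and 1.01, *Lce1g* 0.75 and -0.33 from 4 counts or fewer, *S100a11* 0.71 and -0.066, and *S100a14* -0.18 and 0.0096.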

How the results depend on the processing

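Between the lines, DESeq2 and limma voom each called 8 members higher. P10 libraries only gave 2 higher and 0 lower, and SFM libraries only 3 and 0. Lower calls were also 0 with limma voom and with at least 10 counts in every library, where *Sprr2j-ps* was not tested. Leaving out each library in turn gave 3 to 5 higher and 0 to 1 lower. *S100a4* changed sign without TMM factors (-0.0061), with P10 only (-0.89), with SFM only (-0.28) and without the P25 SCM library or IMOK replicate 1 (range -0.47 to 0.76 over the libraries left out). *S100a3* changed sign with limma voom (0.12) and without IMOK replicate 3 (range -0.98 to 0.10). With P10 only *Sprr2k* (-0.98) and *Ivl* (-0.47) turned negative. None of these 4 genes was called between the lines under any setting run, and the cause was not tested.

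For medium, 1 member (*Sprr1a*) was called when passage was a block over the 4 libraries of P10 and P25, and 0 to 1 when a library was left out. For passage, DESeq2 called 2 members lower, and 0 were called without TMM factors, with at least 10 counts in every library and in SFM only, and 0 to 1 when a library was left out. *Lce1h* could not be tested with at least 10 counts or without P2 or P4. An arm left with 1 library was assumed to vary like the others. By replicate number no paired analysis was possible because only the IMOK libraries carry such numbers, and medium was instead paired by passage in the block above.

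Depth limits the 34 members that never exceeded 9 counts, whose differences were not detectable here.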

Other observations

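Between the members lie 11 other entries of the tables, of which 2 reached 10 TPM, and both were highest in the early mSGc libraries. *Crct1*, a cysteine-rich gene of the complex, was at 31.1 TPM at P2, 53.6 at P4, 3.03 and 5.07 at P10 in SFM and SCM, and 0.492 and 0.444 at P25, against 0.818, 0.162 and 0.174 TPM in IMOK. Its log2 change was -1.97 ± 0.45 per doubling of passage (edgeR adjusted p = 0.127) and 5.51 ± 1.79 for mSGc over IMOK (0.0641), neither past the threshold. *Pglyrp3*, a gene of a secreted antibacterial protein, was at 11.8 and 30.5 TPM at P2 and P4, 0.784 and 0.570 at P10, 4.35 and 1.15 at P25, and 0.212, 3.14 and 7.31 TPM in IMOK. IMOK replicate 1 was again the lowest of its group for *Pglyrp3*, and the log2 change per doubling was -0.62 ± 0.48 (edgeR adjusted p = 0.632).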
